A study of Bos taurus with 45 samples.

Results

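The 8 genes described here are macrophage markers: the lectins CLEC4F and SIGLEC1, and CD14, CD68, CD163, CSF1R, MRC1 and AIF1. They were chosen by symbol, and their division into genes that moved with the conceptus (CLEC4F, and SIGLEC1 beside it) and genes taken as steady cell markers (the other 6) came from the endometrial comparison of co-culture with mono-culture. CD14, 1 of these 6, was lower in co-culture in 10 of 11 uteri. The mean of the 6 used below is a level of these genes, and not a measure of macrophages. All 8 were among the 27270 genes of the endometrial table, as ENSBTAG00000004560 (CLEC4F), ENSBTAG00000013167 (SIGLEC1), ENSBTAG00000015032 (CD14), ENSBTAG00000000133 (CD68), ENSBTAG00000019669 (CD163), ENSBTAG00000012771 (CSF1R), ENSBTAG00000038048 (MRC1) and ENSBTAG00000020554 (AIF1), and 5 of them among the 16149 genes of the conceptus table. CLEC4F, CD163 and CSF1R were not analysed in conceptus tissue.

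Macrophages are tissue phagocytes that engulf dying cells and microbes, present antigen and help remodel tissue, and in the uterus of mammals they are part of the maternal immune response to pregnancy. CLEC4F is a C-type lectin known from mouse as a receptor of Kupffer cells, the macrophages of the liver. SIGLEC1, or sialoadhesin, is a sialic acid-binding receptor of macrophages and is known as a gene that interferons induce, and interferon tau is the interferon that the elongating ruminant conceptus secretes.

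Gene transcripts were counted in 45 bovine libraries after 12 h of culture of Day 16 tissue from Angus-Holstein heifers. The Endo-IVD Conc endometrium group held 15 libraries of intercaruncular endometrial explants from 11 uteri, cultured with sections of conceptuses that had developed in vivo (IVD) in inseminated heifers, and the Endo group held 13 libraries of explants from 13 cyclic uteri cultured alone. The Endo-IVD Conc conceptus group held 9 libraries of IVD conceptus sections cultured on endometrium, and the IVD Conc group 8 libraries of sections cultured alone. All endometrium came from cyclic, unbred heifers. All 11 uteri of the co-culture also gave an Endo explant, 4 of them contributed 2 sister explants to it, cultured with different conceptuses, and some conceptuses were shared between uteri, so libraries of 1 group were not all independent. Total counts per library ranged from 48667308 to 63970863 in Endo-IVD Conc endometrium, from 44206002 to 61504851 in Endo, from 58583647 to 92005370 in Endo-IVD Conc conceptus and from 65488142 to 104436922 in IVD Conc. Values are CPM, a gene's count relative to the scaled total of its library, a level that is not corrected for gene length. Levels were therefore not compared between genes, except to pick which genes of a list to name.

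CLEC4F and SIGLEC1 were more abundantly expressed in Endo-IVD Conc endometrium than in Endo, and the other 6 markers lay in overlapping ranges. Of the 8 markers, 2 were called more abundant and 0 less abundant, at an adjusted p of at most 0.05 in a fit across all 16443 genes tested, of which 4.98% were called more abundant, 2.15% less abundant and 7.13% either way. As this contrast chose the genes, the counts and fold changes below are a description with no test, and nothing is read from them. CLEC4F passed the filter on low counts through its co-cultured libraries alone.

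CLEC4F had 0.0342 CPM at the lowest, 3.18 CPM at the median and 22.4 CPM at the highest in the 15 Endo-IVD Conc endometrium libraries, against 0 CPM at the lowest and the median and 0.302 CPM at the highest in the 13 Endo libraries. In counts, these were 2, 140 and 1386 in Endo-IVD Conc endometrium, against 0, 0 and 14 in Endo, where 7 of 13 libraries had no count and all 13 together held 30. A transcript that was close to the limit of detection in explants cultured alone was therefore counted in each of the 15 co-cultured explants, and 13 of the 15 lay above the highest Endo library. The exceptions were the explants of uteri 53 and 16, with 2 counts each. The mean level was 4.50 ± 5.61 CPM in Endo-IVD Conc endometrium (SD, n = 15) and 0.045 ± 0.086 CPM in Endo (SD, n = 13). The log2 fold change was 6.62 (standard error 0.90). It was 6.03 without uterus 54, the uterus with the highest level, and 7.46 without uterus 69, the uterus with the highest Endo level. In bulk tissue, a change in the number of cells of a type and a change in RNA per cell cannot be told apart.

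SIGLEC1 had 1.02, 5.31 and 16.7 CPM at the lowest, median and highest in Endo-IVD Conc endometrium, against 0.323, 0.841 and 2.12 CPM in Endo. Unlike CLEC4F, it was counted in every explant cultured alone, and 12 of 15 co-cultured explants lay above the highest Endo explant. The mean was 6.40 ± 4.67 CPM in Endo-IVD Conc endometrium (SD, n = 15) and 0.908 ± 0.509 CPM in Endo (SD, n = 13), and the log2 fold change was 2.82 (standard error 0.39).

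**Figure D1:**
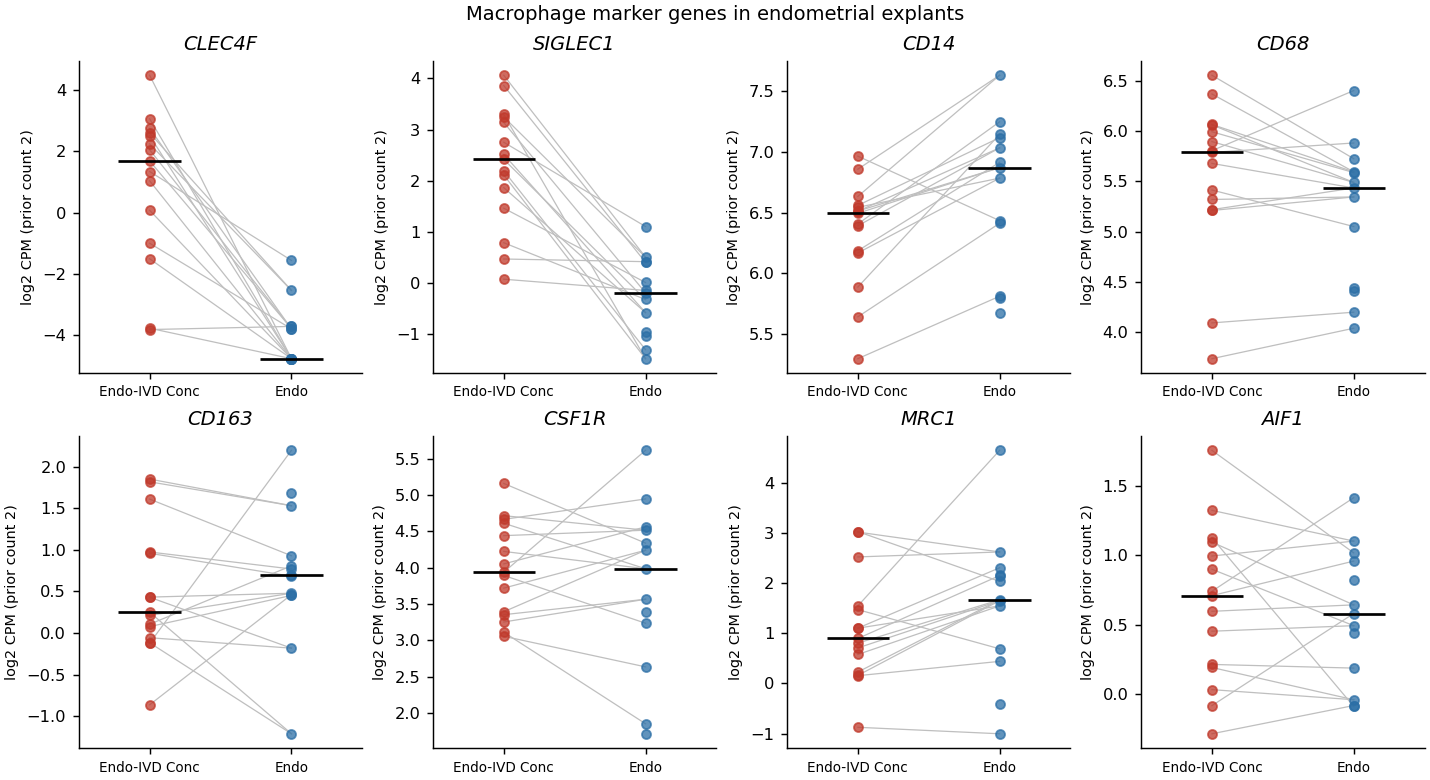
Log2 CPM (y axis, prior count 2) of each macrophage marker in Endo-IVD Conc endometrium (red, 15 libraries) and Endo (blue, 13 libraries); bars are medians and grey lines join explants of the same uterus. CLEC4F and SIGLEC1 are separated but for 2 and 3 co-cultured explants, and the other 6 markers overlap.

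CD14, the co-receptor that passes bacterial lipopolysaccharide to TLR4, had 39.2, 90.1 and 125 CPM at the lowest, median and highest in Endo-IVD Conc endometrium, against 50.9, 117 and 199 CPM in Endo. Its ranges overlapped, with 2 of 15 co-cultured explants below the lowest Endo explant. The log2 fold change was -0.40 (standard error 0.19), which was not called. It was lower in co-culture in 10 of 11 uteri, and with the uterus as a replicate block it was called less abundant (log2 fold change -0.59, standard error 0.11).

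CD68, a glycoprotein of lysosomes that is abundant in macrophages, had 13.3, 55.3 and 94.2 CPM at the lowest, median and highest in Endo-IVD Conc endometrium, against 16.4, 43.2 and 84.7 CPM in Endo (log2 fold change 0.35, standard error 0.25). Its level was the higher one in the co-cultured explants of 6 of 11 uteri. It was called more abundant in 1 of 21 alternative analyses, that with 2 RUVr factors (log2 fold change 0.36).

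The scavenger receptor CD163, which takes up hemoglobin bound to haptoglobin, had 0.513, 1.15 and 3.58 CPM in Endo-IVD Conc endometrium, against 0.395, 1.58 and 4.56 CPM in Endo, at the lowest, median and highest (log2 fold change -0.21, standard error 0.31). CSF1R, the receptor for the growth factors CSF1 and IL34 on which macrophages depend, had 8.27, 15.3 and 35.7 CPM in Endo-IVD Conc endometrium, against 3.24, 15.8 and 48.9 CPM in Endo (log2 fold change -0.01, standard error 0.32). MRC1, the mannose receptor, had 0.509, 1.83 and 8.12 CPM in Endo-IVD Conc endometrium, against 0.462, 3.14 and 25.0 CPM in Endo (log2 fold change -0.77, standard error 0.47). The ranges of these receptors overlapped throughout, with no co-cultured explant outside the range of Endo. AIF1, an actin-binding protein of macrophages and microglia, had 0.782, 1.60 and 3.35 CPM in Endo-IVD Conc endometrium, against 0.902, 1.46 and 2.63 CPM in Endo (log2 fold change 0.11, standard error 0.21).

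The Endo explant of uterus 69 held the highest level of MRC1, CSF1R, CD163, CD68 and AIF1 among the Endo libraries. Without that uterus, the log2 fold change was -0.15 for MRC1, 0.24 for CSF1R and 0.02 for CD163, so that the differences of CSF1R and CD163 turned their sign without it.

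Compared per uterus, with sister explants averaged, CLEC4F was the higher with co-culture in 10 of 11 uteri and SIGLEC1 in 11 of 11. The Endo explants of 6 of the 11 uteri held 0 counts of CLEC4F, so the size of its change per uterus depends on the prior count. Its median log2 change was 4.96 with a prior count of 2 and 6.33 with one of 0.5, which are not exact sizes. Uterus 54 held 1386 counts in co-culture and 0 in Endo, and uterus 70 held 410 in co-culture and 0 in Endo. Uterus 53 held 2 counts in co-culture and 0 in Endo, and uterus 16 held 2 in both. SIGLEC1 had a median log2 change of 2.77 and its highest value, 4.18, in uterus 19. The same pair of uteri had its smallest changes, 0.22 in uterus 53 and 0.05 in uterus 16. Of the other markers, the median log2 change per uterus was -0.58 for CD14, 0.01 for CD68, 0.20 for CD163, 0.06 for CSF1R, -0.71 for MRC1 and 0.06 for AIF1. Uterus 69 had the lowest change of each of these 6 markers, from -3.10 for MRC1 to -0.60 for CD68, while its CLEC4F and SIGLEC1 changed by 2.90 and 1.65.

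**Figure D2:**
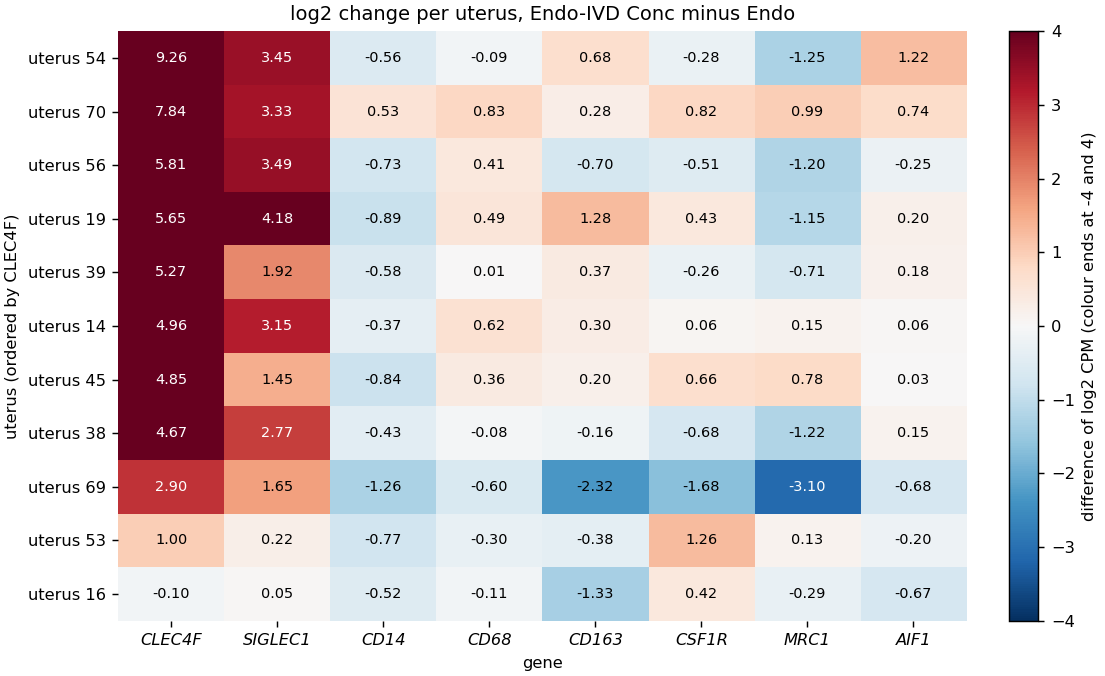
Difference of log2 CPM between Endo-IVD Conc and Endo explants of each of 11 uteri (rows, ordered by CLEC4F) for the 8 markers (columns), with sister explants averaged; red is higher in co-culture and blue lower, and values of CLEC4F depend on the prior count of 2 where the Endo explant had 0 counts. CLEC4F was higher in 10 uteri and SIGLEC1 in 11, whereas CD14 was lower in 10 and uterus 69 was the lowest in the 6 other markers.

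Levels of CLEC4F and SIGLEC1 went together among the co-cultured explants. Over 11 uteri, their log2 CPM had a Pearson r of 0.96 and a Spearman rho of 0.97, and an r of 0.92 without the 2 uteri farthest from the median of CLEC4F. Both also went with the mean log2 CPM of the 6 other markers, with r = 0.89 and rho = 0.85 for CLEC4F and r = 0.88 and rho = 0.83 for SIGLEC1. Uteri 53 and 16 had the lowest mean of the 6 markers, and without them r was 0.69 for CLEC4F and 0.71 for SIGLEC1. No p is given for these values, since the markers were chosen with results of these libraries known. Among the single markers, r with CLEC4F ranged from 0.67 for MRC1 to 0.91 for CD68. In Endo, CLEC4F had too few counts for such a relation to be read, and SIGLEC1 had r = 0.39 with the mean of the 6 markers over 13 uteri (0.16 without the 2 farthest).

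The level of the interferon response was compared in the same way, as the mean log2 CPM of 20 interferon-stimulated genes (among them MX1, ISG15 and RSAD2), which ranged from 8.55 to 9.85 in Endo-IVD Conc endometrium and from 3.09 to 4.78 in Endo. Within Endo-IVD Conc endometrium, over 11 uteri, it correlated with CLEC4F at r = 0.71 and rho = 0.70. No p is given for CLEC4F, which passed the filter through these co-cultured libraries alone. For SIGLEC1 the values were r = 0.73 (two-sided permutation p = 0.0128, adjusted p = 0.0256) and rho = 0.71 (permutation p = 0.0186, adjusted p = 0.0414). Without the 2 uteri farthest from the median, r was 0.67 for CLEC4F and 0.64 for SIGLEC1. Within Endo, over 13 uteri, r for SIGLEC1 was 0.41 (permutation p = 0.164, adjusted p = 0.187) and rho 0.36 (permutation p = 0.224, adjusted p = 0.299). That r was -0.11 without the 2 uteri farthest from the median. It was 0.48 with median-of-ratios scaling, where the 2 farthest uteri were picked anew. CLEC4F is not read in Endo for its low counts. The adjustment covers the 8 relations computed. The permutations exchanged uteri freely and ignored that uteri shared conceptuses, while interferon levels were alike in uteri of some sets, so these p-values may be too small. SIGLEC1 was also chosen with results of these libraries known, so its p-values are given as a description. Culture sets are groups of uteri linked by shared conceptuses. Uterus 38, which shared none, formed a set alone, and uteri 15 and 17, without co-culture, were placed together. The sample titles name no such sets. Each of the 6 culture sets with co-cultured explants held only 2 to 4 of them, too few for a relation within a set.

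**Figure D3:**
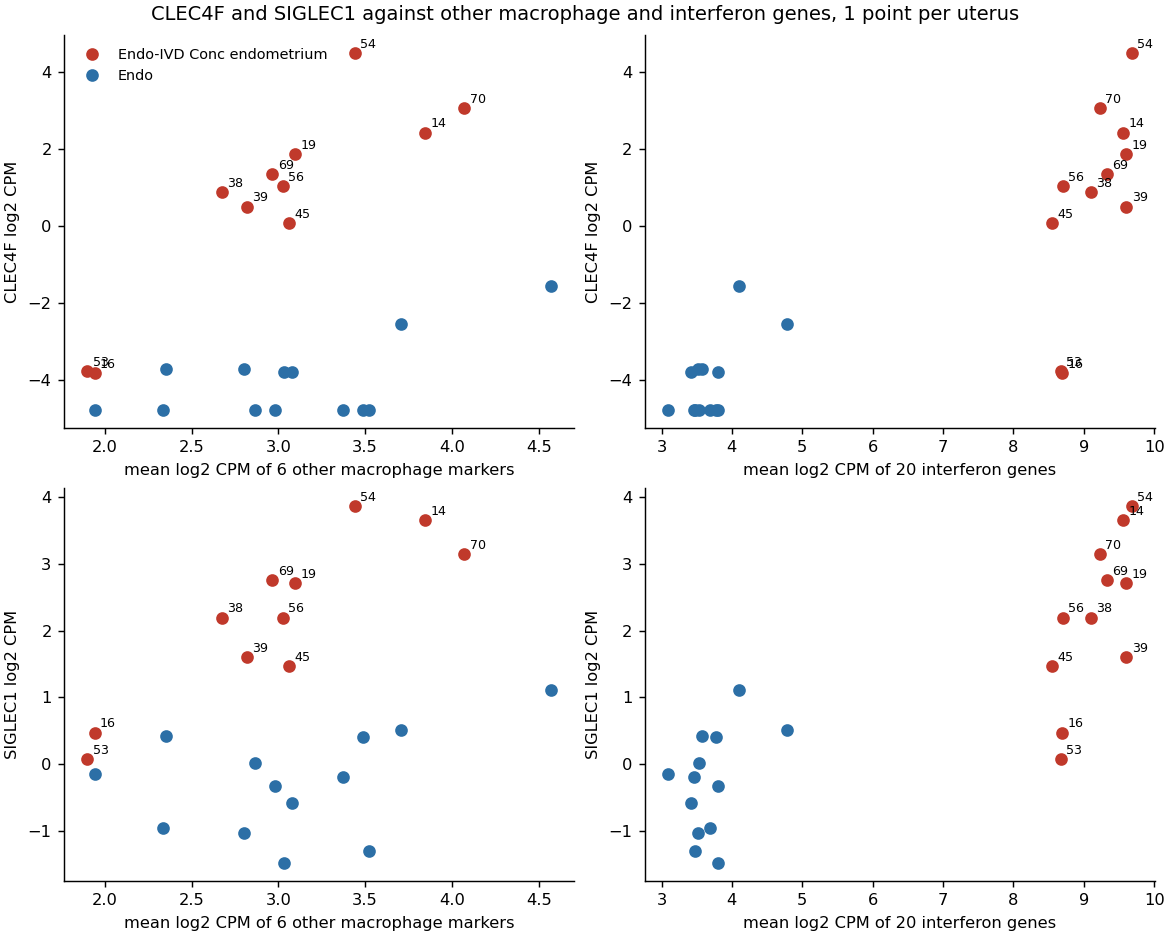
Log2 CPM of CLEC4F (top) and SIGLEC1 (bottom) against the mean log2 CPM of the 6 other macrophage markers (left) and of 20 interferon-stimulated genes (right), with 1 point per uterus, red for Endo-IVD Conc endometrium (labelled by uterus) and blue for Endo. The co-cultured explants of uteri 53 and 16 lie lowest in the left panels, and the interferon genes of co-culture start at 8.55, above the highest Endo uterus at 4.78.

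Pairs of explants that shared a conceptus or a uterus gave a closer view of the variation in CLEC4F. Conceptus 10 was cultured with uteri 45 and 53, which held 68 and 2 counts of CLEC4F. Conceptus 5 was cultured with uteri 56 and 16, which held 126 and 2 counts. The interferon genes differed little within these pairs, at a mean of 8.55 in uterus 45 and 8.67 in uterus 53, and of 8.70 in uterus 56 and 8.69 in uterus 16. The mean of the 6 other markers did differ, at 3.06 log2 CPM in uterus 45 and 1.90 in uterus 53, and at 3.02 in uterus 56 and 1.94 in uterus 16. Over all 6 pairs that shared a conceptus, the explant with more CLEC4F had the higher mean of the 6 markers in 6 and the higher mean of the interferon genes in 2. From the explant with less to the one with more CLEC4F, the interferon mean differed by -0.18 to 0.08 log2 CPM. The mean of the 6 markers differed by 0.49 to 1.16. With interferon means so close, the count of 2 cannot show whether CLEC4F goes with them. These pairs are not independent, as those of conceptuses 8 and 26 both compared uteri 14 and 39. With conceptus 8 these uteri held nearly equal counts of CLEC4F, 305 and 277.

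Explants of 1 uterus with different conceptuses could also differ. Uterus 39 gave 277 counts of CLEC4F with conceptus 8 and 16 with conceptus 26, and uterus 38 gave 394 with conceptus 66 and 24 with conceptus 50. In uteri 14 and 19 the sister explants were close, with 305 and 257 counts in uterus 14 and 221 and 140 in uterus 19. The 6 other markers differed between sister explants by at most 0.58 on the log2 scale in any of the 4 uteri, against 0.36 to 4.02 for CLEC4F and 0.65 to 1.63 for SIGLEC1. In these 4 pairs, the sister with more CLEC4F had the higher mean of the 6 markers in 4 and the higher mean of the interferon genes in 3. That marker mean differed by 0.09 in uterus 38, 0.17 in uterus 39, 0.24 in uterus 14 and 0.30 in uterus 19. CLEC4F differed by 3.75 in uterus 38 and 4.02 in uterus 39. Single markers went the other way: CD14 and CD163 in uterus 38, CSF1R and AIF1 in uterus 39, and CD14 in uterus 19. These pairs are too few for a test.

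Genes whose levels most resembled each marker were found among 12230 genes, by the correlation of log2 CPM with the group means removed over the 28 endometrial libraries, which share uteri and differ in cell makeup. The genes most like CLEC4F included SIGLEC1 (r = 0.82), which ranked first, C1QA (0.81) and C1QC (0.80), which encode chains of complement C1q made by macrophages, and SLAMF7 (0.78), a receptor of leukocytes. For SIGLEC1 they included CLEC4F, PEAR1 (0.81), C1QA (0.78) and C1QC (0.77). CSF1R went with WDFY4 (0.90), IL7R (0.88) and MPEG1 (0.87), MRC1 with WDFY4 (0.86), the chemokine CCL22 (0.86) and IL7R (0.86), and AIF1 with EVI2B (0.84), EVI2A (0.83) and the leukocyte tetraspanin CD53 (0.82). CD163 went with RHOBTB1 (0.70), the integrin chain ITGAM (0.70) and the scavenger receptor MSR1 (0.68).

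CD68 went with PRF1 (0.96), the perforin of cytotoxic lymphocytes, IL7R (0.94), a cytokine receptor of lymphocytes, and CXCR6 (0.94), a chemokine receptor of T cells. CD14 went with PXDN (0.88), a peroxidase of the extracellular matrix, C1QTNF5 (0.87) and C3H1orf54 (0.87). Within Endo, CD14 had an r of 0.72 with CD68 and 0.0059 with AIF1 over 13 uteri. The 15 pairs among the 6 markers had a median r of 0.77 (0.56 to 0.91) over 11 uteri in Endo-IVD Conc endometrium and of 0.41 (-0.27 to 0.93) over 13 uteri in Endo. CD163 and CD14 formed the pair with the lowest r in Endo.

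The next genes along the chromosome were looked up in RefSeq's ARS-UCD2.0 annotation, another assembly than that of the counts. CLEC4F lay between CD207, the lectin of Langerhans cells, and FIGLA, neither of which passed the filter. The genes beside SIGLEC1, HSPA12B and ADAM33, were not called (log2 fold changes -0.35 and 0.50, edgeR's adjusted p = 0.0898 and 0.487).

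A list of 30 other macrophage markers was compared between Endo-IVD Conc endometrium and Endo. It and the lists below were chosen with earlier results of these data known, so their endometrial p-values are given as a description. Of these, 29 matched a symbol and 27 passed the filter. Of the 27, 2 were more abundant (7.41%, against 4.98% of all genes tested) and 0 less abundant (against 2.15%). The median log2 fold change of the 27 was 0.31, against -0.04 over all genes tested. SLCO2B1, an organic anion transporter, averaged 24.7 ± 10.1 CPM in Endo-IVD Conc endometrium (SD, n = 15) and 12.1 ± 6.38 CPM in Endo (SD, n = 13), with a log2 fold change of 1.02 (standard error 0.24, edgeR's adjusted p = 0.00617). MERTK, a receptor for the uptake of dying cells, averaged 46.9 ± 9.76 CPM in Endo-IVD Conc endometrium and 34.6 ± 6.61 CPM in Endo, with a log2 fold change of 0.44 (standard error 0.11, edgeR's adjusted p = 0.00964). Both were higher in 11 of 11 uteri and stayed called in each of 13 fits that left out 1 uterus.

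**Figure D4:**
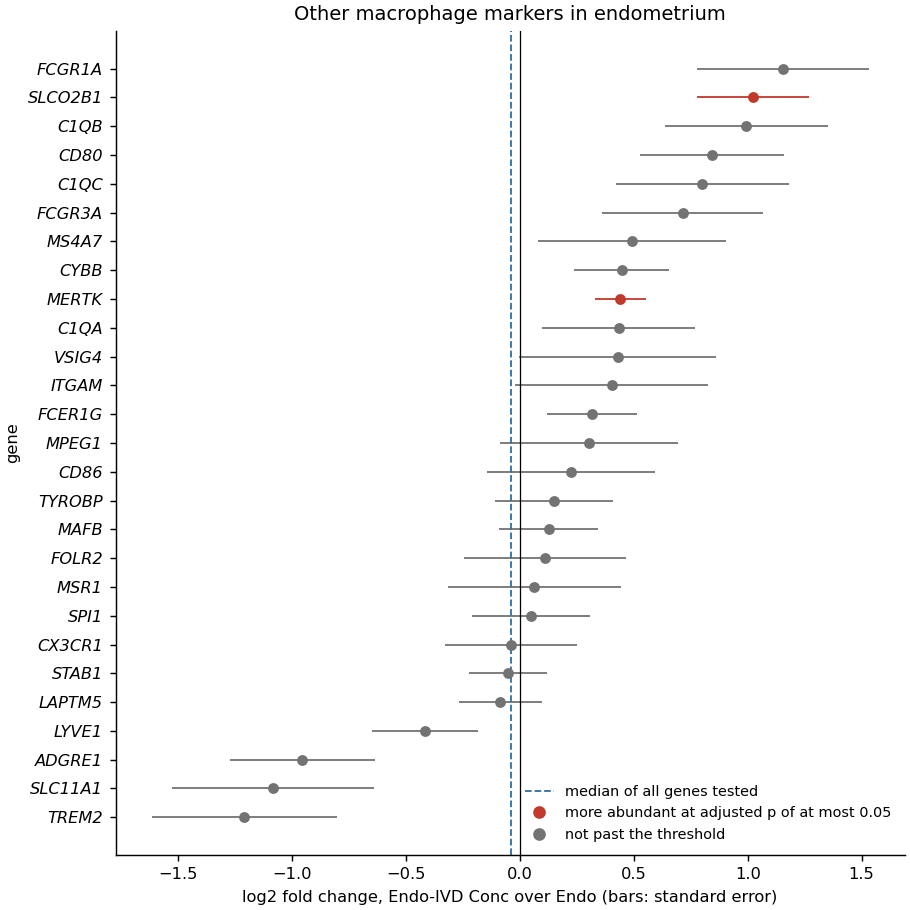
Log2 fold change of Endo-IVD Conc endometrium over Endo (x axis, bars are standard errors) for 27 other macrophage markers; red marks the 2 genes past an adjusted p of 0.05 and the dashed line the median of all genes tested. SLCO2B1 (1.02) and MERTK (0.44) passed, while FCGR1A (1.15) and TREM2 (-1.21) had larger differences with wider errors.

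With the uterus as a replicate block, 5 of the 27 were more abundant. That fit called more genes in general, with 1100 of all endometrial genes tested more abundant, against 819 without the block. The added genes were FCGR1A, the high-affinity receptor for IgG (log2 fold change 1.09, edgeR's adjusted p = 0.00294), CD80, a costimulatory ligand (0.76, edgeR's adjusted p = 0.0122), and C1QB (0.88, edgeR's adjusted p = 0.0454), of which C1QB lost the call with sister explants summed. Without the block, FCGR1A had a log2 fold change of 1.15 (edgeR's adjusted p = 0.0593), CD80 of 0.84 (0.108) and C1QB of 0.99 (0.0926). Markers of highest level that were not called either way were LAPTM5 (-0.09), LYVE1 (-0.42), STAB1 (-0.05) and FCER1G (0.32). ADGRE1, known as F4/80 in mouse (-0.96, edgeR's adjusted p = 0.0652), and TREM2 (-1.21, edgeR's adjusted p = 0.0678) are named after their values were seen.

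Of 12 genes of Kupffer cells known from mouse and human, 7 passed the filter and 1 was more abundant, where 4.98% of all genes tested were. The gene called was TIMD4, a receptor for phosphatidylserine on dying cells, with 0.400, 1.79 and 5.49 CPM at the lowest, median and highest in Endo-IVD Conc endometrium, against 0.0705, 0.158 and 0.680 CPM in Endo. It was higher in 11 of 11 uteri, with a log2 fold change of 3.42 (standard error 0.43, edgeR's adjusted p = 6.35e-07). The other tested genes of the list were FOLR2 (0.11), VSIG4 (0.43), ID3 (-0.35), NR1H3 (-0.28), HMOX1 (-0.60) and IL18BP (0.87, edgeR's adjusted p = 0.066), of which IL18BP passed with the replicate block (0.90, edgeR's adjusted p = 0.0451). The list's median was 0.11. CD5L, SPIC, MARCO, CLEC1B and C6 did not pass the filter.

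CD14 was set beside its partners in lipopolysaccharide sensing, of which 3 of 12 tested were more abundant in Endo-IVD Conc endometrium and 0 less abundant (median 0.10). Over all genes tested, 4.98% were more and 2.15% less abundant. TLR4 averaged 44.1 ± 12.3 CPM in Endo-IVD Conc endometrium (SD, n = 15) and 26.0 ± 6.63 CPM in Endo (SD, n = 13), higher in 11 of 11 uteri (log2 fold change 0.76, edgeR's adjusted p = 6.22e-04). TICAM2, an adaptor of TLR4, had a log2 fold change of 0.64 (edgeR's adjusted p = 0.0280), and CD180, a relative of TLR4, of 2.41 (edgeR's adjusted p = 0.0247). These 2 lost the call without single uteri, TICAM2 in 3 (uteri 14, 19 and 70) and CD180 in 6 (uteri 14, 19, 38, 39, 54 and 70) of 13 such fits, with adjusted p up to 0.0786 and 0.0651 in edgeR. LY96, the other co-receptor of TLR4, was not called (-0.27, edgeR's adjusted p = 0.354), nor were MYD88 (-0.10), IRAK1 (-0.31) and TRAF6 (0.12).

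The lists around the other markers gave fewer calls. Of 21 tested C-type lectins other than CLEC4F and MRC1, 0 were called by edgeR (median 0.08), 2 at an unadjusted p under 0.05 and 1 by DESeq2, and with the replicate block CLEC1A (0.37, edgeR's adjusted p = 0.0208) and CLEC10A (0.89, 0.0492) were more abundant and CLEC5A (-0.99, 0.0173) less abundant. Of 3 tested Siglecs and relatives, SIGLEC10 (-0.23), CD22 (-0.30) and the sialylated ligand SPN (0.07), 0 were called by edgeR, at an unadjusted p under 0.05 or by DESeq2. In the CSF1 receptor axis 0 of 6 were called by edgeR or DESeq2 and 2 had an unadjusted p under 0.05, with CSF1 at 0.08, IL34 at 0.09 and CSF2RA at 0.38, which passed with the replicate block (0.42, edgeR's adjusted p = 0.0494). Of 11 genes of alternative activation 0 were called by edgeR or DESeq2 (median -0.08) and 4 had an unadjusted p under 0.05, while with the block CCL22 (-1.45, edgeR's adjusted p = 0.00294) and MMP12 (-1.03, 0.0217) were less abundant and TGM2 (0.49, 0.0396) more abundant.

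Markers of other cells were checked beside these results, where 4.98% of all endometrial genes tested were more and 2.15% less abundant. Of 6 pan-leukocyte markers, CD53 was more abundant (log2 fold change 1.53, edgeR's adjusted p = 8.44e-04, 11 of 11 uteri) and PTPRC, or CD45, was not called (0.33). Their summed level ranged from 37.7 to 161 CPM in Endo-IVD Conc endometrium and from 31.8 to 150 CPM in Endo. Of T cell markers 0 of 11, of B cell markers 0 of 5, of neutrophil markers 0 of 5 and of dendritic cell markers 0 of 7 were called by edgeR or DESeq2, with an unadjusted p under 0.05 for 1 dendritic cell marker and 0 of the others, and of NK cell markers 1 of 8, KLRB1 (2.04, edgeR's adjusted p = 0.0112). Smooth muscle markers, with 3 of 6 more abundant, summed to between 458 and 9059 CPM in Endo-IVD Conc endometrium, highest in uteri 38 and 69, and to between 259 and 1694 CPM in Endo, but 0 were called with the replicate block. Of endothelial markers 2 of 7 were less abundant, PECAM1 (-0.97) and EMCN (-0.48), of which EMCN lost the call in 7 of 13 fits without 1 uterus (14, 15, 19, 39, 53, 56 or 69). With the replicate block VWF (-0.79, edgeR's adjusted p = 2.34e-04) and TIE1 (-0.58, edgeR's adjusted p = 0.0173) were less abundant as well. Without uteri 38 and 69, the filter left out CLEC4F, SIGLEC1 was at 3.02, and 4 of the other macrophage markers were more abundant. The part of these cells in the values above was not tested.

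In conceptus sections, 5 of the 8 markers had values and 4 passed the filter. Of these 4, 0 were called by edgeR in Endo-IVD Conc conceptus against IVD Conc, where 7.24% of the 14746 genes tested were called, 3.59% more abundant and 3.65% less abundant. DESeq2 called 0 of them as well, and 1 had an unadjusted p under 0.05. This contrast was not used to choose the genes.

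**Figure D5:**
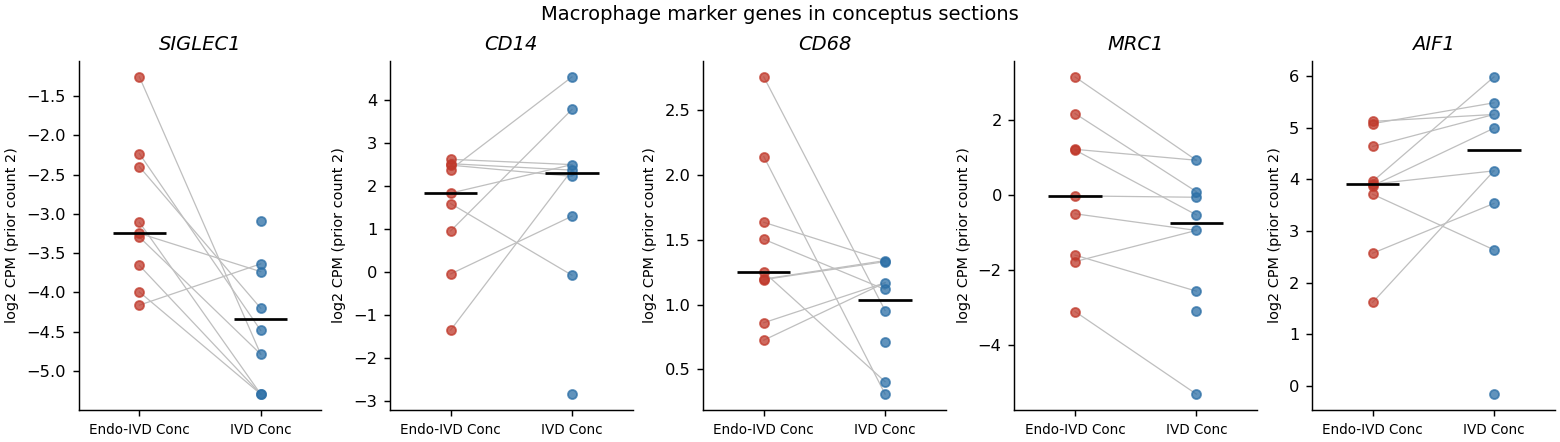
Log2 CPM (y axis, prior count 2) of 5 macrophage markers in Endo-IVD Conc conceptus (red, 9 libraries) and IVD Conc (blue, 8 libraries); bars are medians and grey lines join sections of the same conceptus. The groups overlap for each marker, and CD14, MRC1 and AIF1 spread more widely among the sections cultured alone than CD68 and SIGLEC1 do.

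CD14 averaged 3.59 ± 2.18 CPM in Endo-IVD Conc conceptus (SD, n = 9) and 6.96 ± 7.76 CPM in IVD Conc (SD, n = 8), with a log2 fold change of -0.96 (standard error 0.71, edgeR's adjusted p = 0.431). AIF1 averaged 17.8 ± 11.2 CPM in Endo-IVD Conc conceptus and 26.8 ± 21.4 CPM in IVD Conc, with a log2 fold change of -0.59 (standard error 0.60, edgeR's adjusted p = 0.587), and was lower in 6 of 7 conceptuses with both cultures. CD68 averaged 3.04 ± 1.61 CPM in Endo-IVD Conc conceptus and 1.92 ± 0.506 CPM in IVD Conc, with a log2 fold change of 0.66 (standard error 0.28, edgeR's adjusted p = 0.157). MRC1 averaged 2.23 ± 2.83 CPM in Endo-IVD Conc conceptus and 0.655 ± 0.625 CPM in IVD Conc, with a log2 fold change of 1.76 (standard error 0.91, edgeR's adjusted p = 0.236), and was higher in 6 of 7 conceptuses.

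SIGLEC1 did not pass the filter in conceptus tissue. It had 0.0304, 0.0798 and 0.393 CPM at the lowest, median and highest in Endo-IVD Conc conceptus, against 0, 0.0240 and 0.0915 CPM in IVD Conc, and was higher in 6 of 7 conceptuses. HBA, a hemoglobin chain, was at 32.5 ± 25.1 CPM in Endo-IVD Conc conceptus (SD, n = 9) and at 1.09 ± 0.591 CPM in IVD Conc (SD, n = 8; log2 fold change 4.89, edgeR's adjusted p = 0.00654). Its relation to the SIGLEC1 values was not tested.

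CD14 and AIF1 varied widely among the sections cultured alone. AIF1 ranged from 0.869 CPM in conceptus 5 to 63.1 CPM in conceptus 66, and CD14 from 0.114 CPM in conceptus 5 to 23.1 CPM in conceptus 8. Over the 8 IVD Conc libraries the log2 levels of AIF1 and CD14 correlated with r = 0.93 (exact permutation p = 0.00191, adjusted p = 0.0115) and rho = 0.76 (exact permutation p = 0.0368, adjusted p = 0.221), over 6 pairs of markers computed. Without the 2 conceptuses farthest from the median of AIF1, r was 0.60. The other 5 pairs, with CD68 or MRC1, had r from 0.21 to 0.40 (lowest exact permutation p = 0.340, adjusted p = 0.625) and rho from 0.14 to 0.36. All 6 pairs were computed after the values were seen, so their p-values are a description and not a test of a relation.

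The genes most like AIF1 over 17 conceptus libraries, with group means removed, were MVP (r = 0.96), the major vault protein, SLCO2B1 (0.96) and NHERF2 (0.95), and those most like CD14 were the protease TMPRSS4 (0.96), SELPLG (0.96) and the glycosyltransferase B3GALT5 (0.95). For CD68 they were FAM83G (0.81), RHEX (0.81) and NPHP4 (0.79), and for MRC1 ARAF (0.82), ATP1B3 (0.81) and CFI (0.81). Of the 30 other macrophage markers 13 had values in conceptus tissue, and the C1q chains, ITGAM, MSR1 and MPEG1 were not analysed there. Of the 12 that passed the filter 0 were called by edgeR, 1 by DESeq2 and 1 at an unadjusted p under 0.05 (median 0.03, against 0.01 over all genes tested), with STAB1 at 0.86 (edgeR's adjusted p = 0.0591) and MERTK at 0.83 (0.214), which passed with the conceptus as a replicate block (0.60, edgeR's adjusted p = 0.0442). AIF1 and CD14 are therefore reported in conceptus tissue as genes, and not as a measure of macrophages.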

How the data were processed

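RNA was sequenced from 28 endometrial and 17 conceptus libraries. In both deposited tables the unit is the raw read count of each gene, which the authors made with Trimmomatic, STAR (endometrium) or HISAT2 (conceptus tissue) and featureCounts on ARS-UCD1.2; no tool version, strand setting or filter of the conceptus table was given in the sources used here. Even counts were more common than odd ones (26567 values of 2 against 10314 of 1 in endometrium), so 1 fragment may have been counted as 2 reads. As the aligners differed, tissues were not compared. A row with no gene name (1, in endometrium) was left out.

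The tests were run in edgeR 4.0.16 (R 4.3.3). Its low-count filter kept 16443 genes in endometrium and 14746 in conceptus tissue, TMM scaled the libraries, and robust quasi-likelihood tests of co-culture against mono-culture were adjusted over all genes (Benjamini-Hochberg, at most 0.05). The standard error is the log2 fold change over the square root of the F statistic. The main fits were tested on simulated data of independent libraries, which did not cover libraries that share animals. Alternatives were median-of-ratios scaling, no filter, DESeq2 1.42.0, blocks by animal or culture set, summed sister explants, 2 RUVr factors and leaving out each animal. Correlations (Python 3.11.15, scipy 1.17.1) used log2 CPM with a prior count of 2 and 100000 permutations, or all of them where n was under 10.

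The animal numbers in the labels pair the libraries: after subtraction of group means, same-animal libraries had a correlation over 0.1 in each of 15 endometrial (median 0.349) and 9 conceptus pairs (median 0.497). No libraries were duplicates within sampling noise. P-values of edgeR count libraries, not heifers. With the animal block, sister explants still counted as separate libraries unless they were summed. Permutation p-values count uteri or conceptuses.

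The markers and lists were chosen with earlier results of these data known. Named are all 8 markers; of each list, up to 6 called genes with the largest change and up to 4 uncalled ones with the highest level; the 5 genes most like CLEC4F and SIGLEC1 and the 3 most like each other marker among genes with an average log2 CPM of at least 1; others were named after their values were seen. A gene that this rule names is not reported here.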

Additional observations from a re-analysis of the deposited data

Results flagged for a closer look

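In 10 groups of conceptus libraries (5 markers in 2 cultures), the highest and the lowest library were compared with the rest of the group. The measure was the share of the range that separates it from its nearest neighbour. Chance passes this test in about 1 of 20 groups of normally distributed values, and 2 groups passed. The CPM values were not checked for that shape, so chance may pass more often here. SIGLEC1 in Endo-IVD Conc conceptus was highest in the section of conceptus 26 cultured on uterus 39, at 0.393 CPM, while the section of the same conceptus on uterus 14 was at 0.0764 CPM. MRC1 in Endo-IVD Conc conceptus was highest in the section of conceptus 47 on uterus 19, at 8.77 CPM, while the section of the same conceptus on uterus 54 was at 2.29 CPM. Neither was examined further.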

How the results depend on the processing

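The endometrial contrast chose the markers, so its values are given as a description. The log2 fold change of CLEC4F ran from 6.03 to 7.46 over the 19 alternatives whose filter kept it, and that of SIGLEC1 from 2.45 to 3.02 over 21. The filter left CLEC4F out, so that 1 marker was called more abundant, with sister explants summed under the uterus block and without uteri 38 and 69. Leaving out 1 uterus gave 2 to 2 markers more abundant and 0 to 0 less abundant. CD14 was the 1 marker called less abundant with the replicate block (uterus), with sister explants summed under that block, with culture sets as a block and with 2 RUVr factors. Of endometrial genes, 1357 were called more abundant with 2 RUVr factors, 1100 with the replicate block (uterus) and 678 to 912 without single uteri. Less abundant were 567 with DESeq2, 633 with the replicate block (uterus), 1337 with 2 RUVr factors, 192 without uteri 38 and 69 (chosen after seeing the data), and 127 to 477 without single uteri (127 without uterus 14, 193 without uterus 19, 223 without uterus 15, 230 without uterus 38).

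Of the other macrophage markers, 5 were more abundant with the replicate block (uterus), 4 with that block and summed explants, with culture set blocks, with DESeq2 and without uteri 38 and 69, 7 with 2 RUVr factors, and 2 to 4 without single uteri (4 without uterus 69). Less abundant were 2 with DESeq2 and with 2 RUVr factors, and 0 to 2 without single uteri (2 without uterus 53, 1 without uterus 16).

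No marker was called in conceptus tissue in any alternative (0 to 0 without single conceptuses). Of conceptus genes, 1172 were more and 1011 less abundant with DESeq2, 334 and 319 with the replicate block (conceptus), 2172 and 1877 with 2 RUVr factors, and 49 to 615 and 47 to 667 without single conceptuses (lowest without conceptus 26).

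Without the 2 uteri farthest from the median, r in Endo moved to 0.072 (CLEC4F) and -0.11 (SIGLEC1) with the interferon genes and to 0.14 and 0.16 with the 6 other markers, and r of CLEC4F with these in co-culture to 0.69. With median-of-ratios scaling, the r with the interferon genes in Endo was 0.66 (CLEC4F) and 0.43 (SIGLEC1) over 13 uteri, against 0.65 and 0.41 with TMM. The 2 farthest uteri were picked anew under each scaling. Without those picked under median-of-ratios scaling, r was 0.57 (CLEC4F) and 0.48 (SIGLEC1), so these values can depend on which uteri are left out. The causes were not tested. Depth limits CLEC4F in Endo, at 0 to 14 counts.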
